A study of Mus musculus with 16 samples.

Results

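Langerhans cells and dermal dendritic cells are the antigen-presenting cells of the skin, and 9 genes that mark or serve them were followed here through the dorsal skin of mice: Cd207, Epcam, Il34, Itgax, Cd86, Ccr7, Xcr1, Batf3 and Flt3. They were chosen by gene symbol, as 9 of the 23282 rows of the count tables. Skin RNA had been sequenced in 16 libraries, 4 in each of 4 groups, from skin samples that the study picked at random within each group. The sources used here do not state that each library came from a different mouse, so p-values measure the spread between these samples, which may in part be technical. All mice were male wild-type C57BL/6N animals, 3 weeks old at purchase and then adapted for 1 week. Cont mice received normal chow. LowAhR mice received a diet low in ligands of the aryl hydrocarbon receptor (AhR) on ligand-free paper bedding for 12 weeks. LowAhR+AD mice received the same diet and, after its first 2 weeks, 1% DNCB (2,4-dinitrochlorobenzene) in acetone and olive oil on the dorsal skin. DNCB is a hapten that induces a contact dermatitis used here as a model of atopic dermatitis (AD). LowAhR+AD+BJ mice were treated like LowAhR+AD mice and received Bojungikgi-tang (BJIKT), a herbal water extract, by gavage at 1 g/kg per day. There was no group with DNCB on normal chow, so an effect of DNCB could be read only on the low AhR ligand diet.

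Langerhans cells sit in the epidermis, where they hold the lectin langerin (Cd207) in their Birbeck granules and carry EpCAM and MHC class II. Their upkeep depends on interleukin 34 (Il34), which keratinocytes secrete and the receptor Csf1r binds. After a hapten is applied, Langerhans and dermal dendritic cells take up antigen, gain co-stimulatory molecules such as CD86, and use the chemokine receptor CCR7 to travel to lymph nodes. Type 1 dendritic cells carry the receptor XCR1 and need the transcription factor BATF3, and FLT3 is the receptor for the growth factor of dendritic cells. Langerhans cells are also known to express AhR.

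Sequence upstream of the gene is shown for Cd207, the only member called (adjusted p under 0.05 in the test across all genes) in any comparison, and for Itgax, another myeloid gene. These windows were taken as 250 before to 50 after a RefSeq start on GRCm38.p6, the assembly that mm10 is taken from. The submitters' processing notes name mm10. For Cd207 that start is the gene start given below, while the Itgax window reaches further past the gene start given below. Cd207 lies on the minus strand of chromosome 6 (gene at chr6:83671207-83677857) and its window is chr6:83677808-83678107. Itgax lies on the plus strand of chromosome 7 (gene at chr7:128129526-128150657) and its window is chr7:128129300-128129599. Capitals mark matches, on either strand, to 3 short motifs: GCGTG, the core of the AhR site; GAGGAA, a PU.1 core; and TGTGGT, a RUNX core.
Cd207: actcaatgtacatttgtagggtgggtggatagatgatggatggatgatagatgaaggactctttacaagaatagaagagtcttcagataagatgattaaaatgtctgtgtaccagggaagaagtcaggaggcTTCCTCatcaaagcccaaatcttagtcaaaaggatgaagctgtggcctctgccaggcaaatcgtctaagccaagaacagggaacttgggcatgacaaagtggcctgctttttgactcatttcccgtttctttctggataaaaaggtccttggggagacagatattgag
Itgax: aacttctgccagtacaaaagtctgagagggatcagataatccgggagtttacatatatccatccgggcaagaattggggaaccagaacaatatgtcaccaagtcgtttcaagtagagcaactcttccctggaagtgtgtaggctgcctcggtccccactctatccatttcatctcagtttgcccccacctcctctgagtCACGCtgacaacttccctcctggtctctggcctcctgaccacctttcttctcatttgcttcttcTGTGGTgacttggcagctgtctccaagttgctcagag
The Cd207 window held 1 match to GAGGAA and none to GCGTG or TGTGGT, and the Itgax window held 1 match to GCGTG and 1 to TGTGGT. Among 32851 mouse promoters of the same length, 32.4% held GCGTG, 28.3% held GAGGAA and 16.8% held TGTGGT, so such matches were common and are given as a description. Promoter windows were found for 6 of the 9 members, and among the other 4 of these Xcr1 held 1 match to GCGTG, Batf3 held 1 match to GAGGAA, and Flt3 and Epcam held none of the 3 motifs.

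The depth and the standing of the libraries bear on all of these genes, most of which had low counts. Library totals were 7080508 to 8773876 counts without DNCB and 10614393 to 13467477 counts with DNCB. Depth thus differed along with DNCB in every comparison of groups with and without it, and its part in the values was not tested. Where no read was counted a gene could still stand at 0.229 to 0.406 CPM, depending on the library, from counting error only. CPM are counts rescaled so that libraries of different depth can be compared. LowAhR+AD replicate 1 stood apart. Of the genes for which the other libraries of its group predicted 20 to 40 counts, 38.2% were at 0 in it, against 0.798% to 13.6% in the other libraries. LowAhR+AD+BJ replicate 3 stood apart in Cd207 and in MHC class II genes, as given below with values. Values without these libraries are given for Cd207, Itgax, Cd86 and Xcr1, for the direction of the members and for the genes most alike to Cd207, Itgax and Cd86. Because whole skin was sequenced, fewer cells of a type and less RNA per cell cannot be told apart.

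Cd207 was sparse in most DNCB-treated skin. Its counts were 75, 79, 126 and 86 in the 4 Cont libraries and 83, 102, 94 and 59 in the 4 LowAhR libraries, in replicate order. They were 0, 4, 27 and 7 in the LowAhR+AD libraries and 0, 0, 112 and 0 in the LowAhR+AD+BJ libraries. All 4 LowAhR+AD libraries lay under every library of both groups without DNCB, and of the LowAhR+AD+BJ libraries 3 had no Cd207 count while replicate 3 lay within the LowAhR range. As CPM, the means were 11.4 ± 2.77 in Cont, 10.9 ± 2.67 in LowAhR, 0.747 ± 0.929 in LowAhR+AD and 2.18 ± 4.35 in LowAhR+AD+BJ (SD, n = 4 each).

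**Figure D1:**
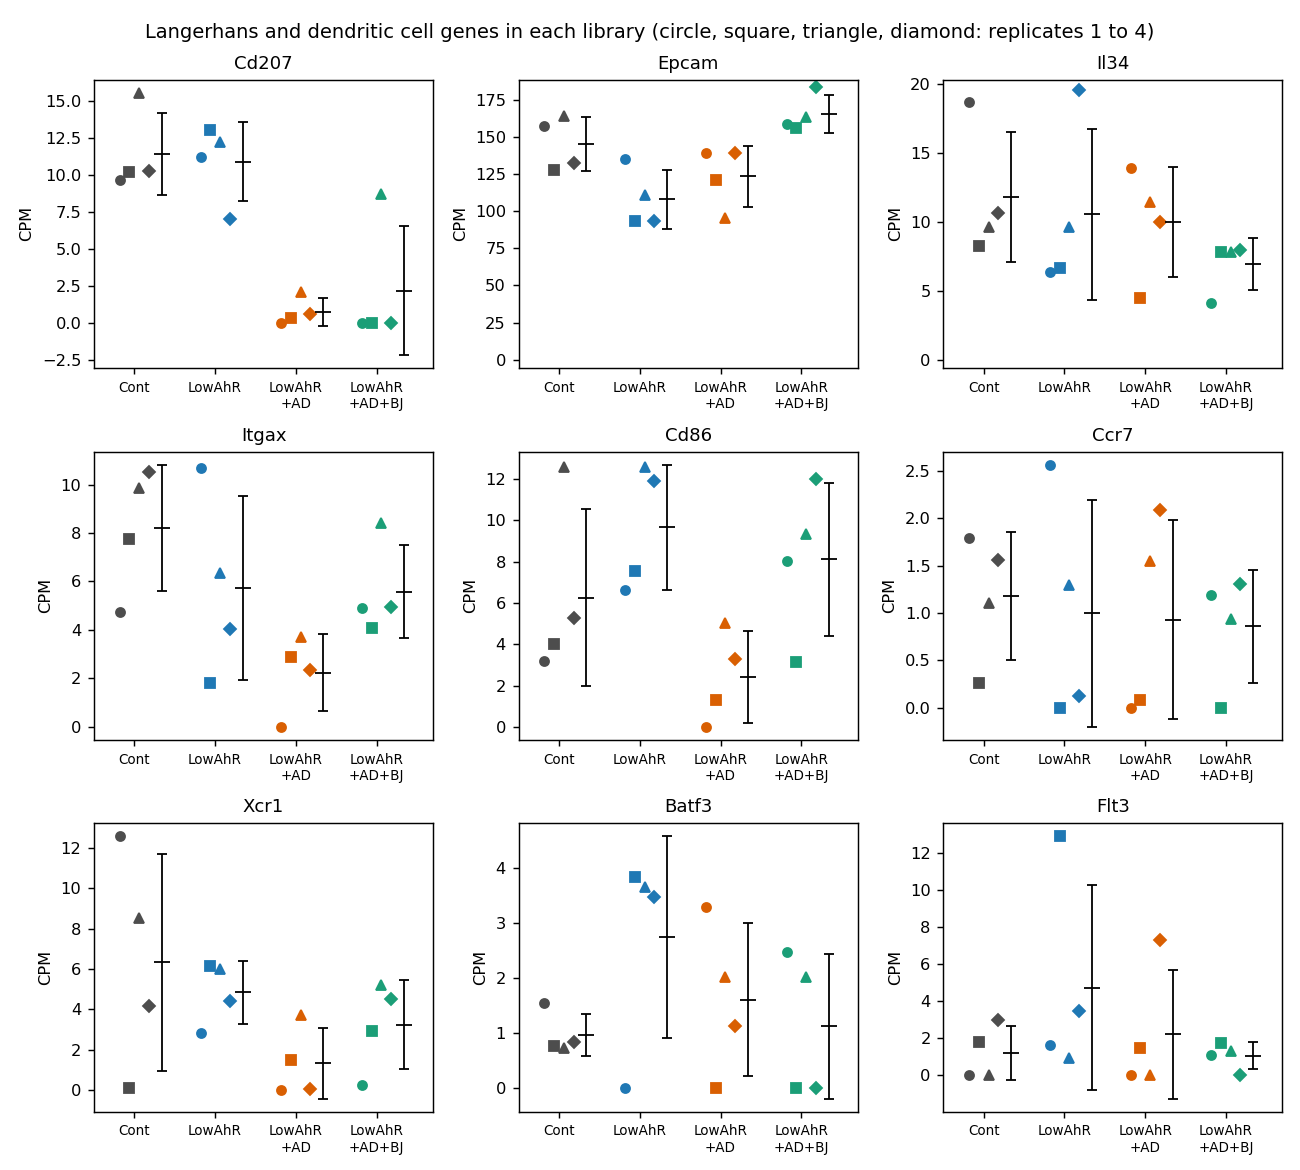
Level of each member in each of the 16 libraries, in CPM on linear axes, by group. Symbols stand for replicates 1 to 4, and the bar beside each group is the mean with 1 SD. Cd207 was at 7.04 to 15.5 CPM in the 8 libraries without DNCB and at 0 to 2.10 CPM in all DNCB-treated libraries except LowAhR+AD+BJ replicate 3, at 8.71 CPM. For the members in the lower row, Xcr1, Batf3 and Flt3, every pair of groups overlapped.

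The test across all genes placed Cd207 close to the threshold. Against Cont, Cd207 fell in the LowAhR+AD group by 3.91 on the log2 scale (standard error, SE, 1.37, adjusted p = 0.0492 from edgeR's quasi-likelihood test over 14854 tested rows). Against LowAhR its log2 fold change was -3.84 (SE 1.37, 95% interval -6.52 to -1.16, edgeR adjusted p = 0.0720), which did not pass the threshold of 0.05. Both pairs of groups were without overlap, with an exact permutation p of 0.0286 each (two-sided, on log2 CPM), the smallest that 4 libraries against 4 allow. That test was run for each member over 6 pairs of groups, 54 tests in all, and its p-values are not adjusted. Cd207 in LowAhR differed from Cont by -0.07 (SE 1.20, edgeR adjusted p = 0.990), so that Cont and LowAhR, neighbours in level, did not differ beyond their spread, and neither did LowAhR+AD and LowAhR+AD+BJ (exact permutation p = 1).

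Whether Cd207 was called depended on the fit and the libraries. Left without LowAhR+AD replicate 1, the fit gave -3.44 relative to LowAhR and -3.52 relative to Cont (edgeR adjusted p = 0.109 and 0.0688). With LowAhR+AD+BJ replicate 3 left out as well, these fold changes were -3.44 and -3.52 with adjusted p of 0.00357 and 0.00147 from edgeR, but that library was singled out by its own Cd207 level after the data were seen. Leaving out 1 library at a time, the call against Cont was lost in 7 of 8 fits and kept only without LowAhR+AD replicate 3. In the LowAhR+AD+BJ group the log2 fold change of Cd207 against LowAhR was -2.29 (SE 1.26, edgeR adjusted p = 0.310, exact permutation p = 0.0571). Without LowAhR+AD+BJ replicate 3 this comparison was called (edgeR adjusted p = 0.00149), all libraries left in the group then being at 0. From the LowAhR mean, 107 to 119 Cd207 counts were predicted in those 3 libraries, where each count of 0 stood at least 35.6-fold to 39.8-fold lower than the LowAhR mean. Of the genes with 80 to 160 predicted counts, 0.0861% to 0.218% were at 0 in the same 3 libraries, and 6.54% in LowAhR+AD replicate 1.

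Relative to leukocyte RNA, too, Cd207 was lower. Ptprc, which encodes the common leukocyte antigen CD45, fell by 1.17 on the log2 scale in LowAhR+AD against LowAhR (edgeR adjusted p = 0.0264). Per 100 counts of Ptprc, a ratio chosen after the values were seen, Cd207 had 13.3 to 18.9 counts in Cont, 10.7 to 18.4 in LowAhR and 0 to 4.04 in LowAhR+AD, again without overlap (exact permutation p = 0.0286 for LowAhR+AD against LowAhR). LowAhR+AD+BJ libraries had 0, 0, 12.2 and 0. Per 100 counts of 7 leukocyte genes, Ptprc among them, Cd207 had 2.33 to 3.30 counts in Cont and 1.18 to 2.32 in LowAhR. On that measure LowAhR lay under Cont without overlap, unlike per Ptprc, so the ratio of these groups depended on the denominator. LowAhR+AD had 0 to 0.333 counts there, and LowAhR+AD+BJ had 0 to 1.34. The other tissue markers of the skin samples also moved. In LowAhR+AD against LowAhR all 10 skeletal muscle genes and 7 of 8 adipocyte genes were called lower, beside 6.21% of all rows. All 8 adipocyte genes had negative values. Replicate 3 of the LowAhR+AD+BJ group had the highest summed muscle level of its group, 10452 CPM. With library sizes computed without hair follicle, muscle and fat genes, the log2 fold change of Cd207 in LowAhR+AD against LowAhR was -3.83 (edgeR adjusted p = 0.0727). Those genes stayed in the fit, and the scaling factors were computed anew and largely offset the change in library size. This value could therefore hardly differ from the -3.84 of the main model and says little on the tissue markers. The part of these tissue markers in the Cd207 values was not tested.

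**Figure D2:**
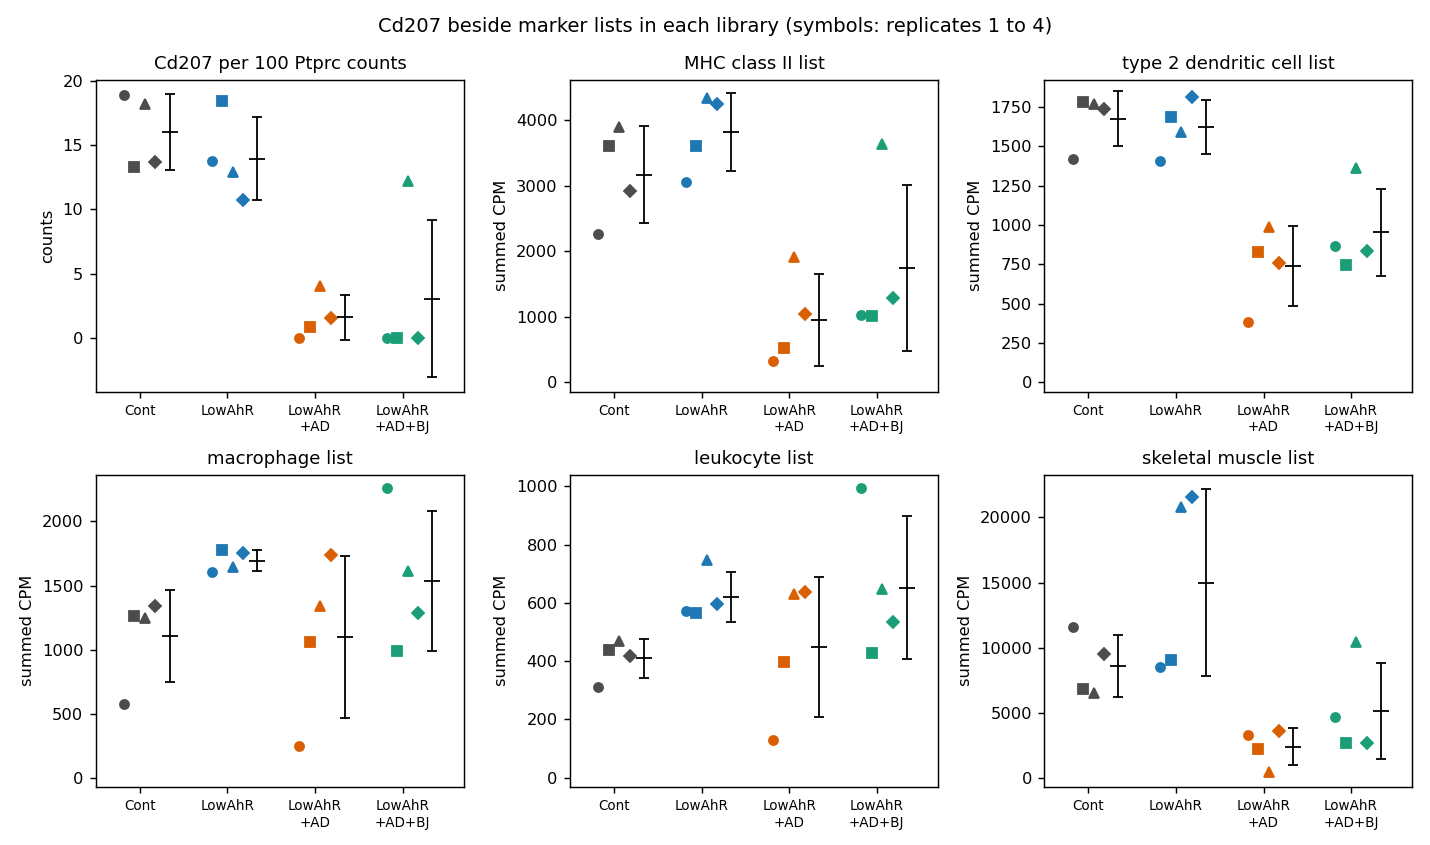
Cd207 counts per 100 Ptprc counts, and the summed CPM of 5 marker lists, in each library by group, with the mean and 1 SD beside the points. MHC class II sums were 3066 to 4339 CPM in LowAhR and 335 to 1911 CPM in LowAhR+AD, and LowAhR+AD+BJ replicate 3, at 3634 CPM, lay apart from the rest of its group there as it did in Cd207.

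Epcam (chr17:87635979-87651127) encodes the adhesion molecule EpCAM, which Langerhans cells share with hair follicle and sebaceous epithelium, so it is not specific to Langerhans cells in whole skin. It was the most deeply counted member, with 728 to 2100 counts per library. Its CPM were 157, 128, 164 and 132 in Cont, 135, 93.1, 111 and 93.1 in LowAhR, 139, 121, 95.4 and 139 in LowAhR+AD, and 158, 156, 163 and 184 in LowAhR+AD+BJ. Every LowAhR+AD+BJ library lay above all LowAhR and all LowAhR+AD libraries (exact permutation p = 0.0286 each). Its log2 fold change in LowAhR+AD+BJ was 0.61 against LowAhR (SE 0.185, edgeR adjusted p = 0.0534), just outside the threshold, and 0.42 against LowAhR+AD (edgeR adjusted p = 0.509). LowAhR+AD against LowAhR gave 0.19 (95% interval -0.17 to 0.56), and LowAhR against Cont gave -0.43 (unadjusted p = 0.0325, edgeR adjusted p = 0.304). Epcam and Cd207 thus had opposite signs in LowAhR+AD+BJ against LowAhR, 0.61 and -2.29. In the same comparison all 16 hair follicle genes had positive values (median 1.78, 0 called, 2 at an unadjusted p under 0.05). Of 7 tested sebaceous genes 4 had positive values, with Elovl3 called higher and Scd3 called lower, beside 3.64% and 3.12% of all rows. Their part in the Epcam values was not tested.

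Il34 (chr8:110741829-110805949), the keratinocyte cytokine that maintains Langerhans cells, showed no call in any comparison. Its CPM were 18.7, 8.26, 9.62 and 10.7 in Cont, 6.35, 6.65, 9.62 and 19.6 in LowAhR, 14.0, 4.51, 11.4 and 10.03 in LowAhR+AD, and 4.10, 7.83, 7.85 and 7.96 in LowAhR+AD+BJ. Every LowAhR+AD+BJ library had less than any Cont library (exact permutation p = 0.0286), while the other groups overlapped. The effect of DNCB on the low diet was -0.08 on the log2 scale (SE 0.453, 95% interval -0.97 to 0.81, edgeR adjusted p = 0.933), an interval that reaches well to both sides of 0. Of its receptor Csf1r, which macrophages also carry in number, LowAhR+AD libraries had 7.93, 71.8, 115 and 170 CPM against 116 to 211 CPM in LowAhR, and the log2 fold change was -0.95 (edgeR adjusted p = 0.247). Csf1, the other ligand of that receptor, gave -0.88 (edgeR adjusted p = 0.256).

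Itgax encodes CD11c, the integrin that dendritic cells share with some macrophages and other leukocytes. Its CPM were 4.75, 7.75, 9.86 and 10.5 in Cont, 10.7, 1.79, 6.37 and 4.05 in LowAhR, 0, 2.87, 3.73 and 2.33 in LowAhR+AD, and 4.92, 4.07, 8.40 and 4.94 in LowAhR+AD+BJ. LowAhR+AD lay under Cont and under LowAhR+AD+BJ without overlap (exact permutation p = 0.0286 for both), and it overlapped LowAhR. The fitted log2 fold changes were -1.88 for LowAhR+AD against Cont (SE 0.814, edgeR adjusted p = 0.110) and 1.32 between LowAhR+AD and LowAhR+AD+BJ, higher in the latter (SE 0.803, edgeR adjusted p = 0.606). The first of these was called by DESeq2 (adjusted p = 0.0401) and by limma voom (adjusted p = 0.0406). Without LowAhR+AD replicate 1, where Itgax was at 0, the edgeR values were -1.48 and 0.90.

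Cd86 (chr16:36568956-36666158) encodes the co-stimulatory ligand that activated antigen-presenting cells show to T cells. Its CPM were 3.21, 4.00, 12.6 and 5.26 in Cont, 6.62, 7.55, 12.6 and 11.9 in LowAhR, 0, 1.31, 5.05 and 3.29 in LowAhR+AD, and 8.03, 3.15, 9.33 and 12.0 in LowAhR+AD+BJ. LowAhR+AD and LowAhR did not overlap (exact permutation p = 0.0286), and the log2 fold change between them was -1.999 (SE 0.823, edgeR adjusted p = 0.119), or -1.59 without LowAhR+AD replicate 1 (edgeR adjusted p = 0.101). In LowAhR+AD+BJ against LowAhR+AD, 3 of the 4 libraries lay above all LowAhR+AD libraries, and the log2 fold change was 1.75 (SE 0.816, unadjusted p = 0.0463, edgeR adjusted p = 0.525). Against LowAhR, the LowAhR+AD+BJ group differed by -0.25 (95% interval -1.80 to 1.29). The T cell receptors of CD86 were too sparse to follow, with Cd28 at 0 to 2.84 CPM and Ctla4 at 0 to 2.16 CPM over the 16 libraries.

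Ccr7 (chr11:99144199-99155077), the receptor of dendritic cells on their way to lymph nodes, had 0 to 26 counts per library. Its group means were 1.18 ± 0.677 CPM in Cont, 0.997 ± 1.20 in LowAhR, 0.930 ± 1.05 in LowAhR+AD and 0.857 ± 0.593 in LowAhR+AD+BJ (SD, n = 4 each), and all groups overlapped. In LowAhR+AD against LowAhR the 95% interval of its log2 fold change ran from -3.03 to 2.84, so a difference in Ccr7 was not detectable at this depth. Its ligands gave log2 fold changes of 0.45 for Ccl19 and -0.85 for Ccl21a in the same comparison (edgeR adjusted p = 0.749 and 0.157). Ccl21a is nearly identical to its neighbouring copies, so its counts are uncertain.

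Xcr1 (chr9:123852315-123862029) and Batf3 (chr1:191098414-191108943), the receptor and the transcription factor of type 1 dendritic cells, differed in how they were spread. Xcr1 CPM were 12.6, 0.129, 8.51 and 4.19 in Cont, 2.84, 6.14, 5.98 and 4.41 in LowAhR, 0, 1.48, 3.73 and 0.0802 in LowAhR+AD, and 0.274, 2.95, 5.21 and 4.54 in LowAhR+AD+BJ. Of the LowAhR+AD libraries 3 lay under all LowAhR libraries, and the fitted difference was -1.86 on the log2 scale (SE 1.19, edgeR adjusted p = 0.326, exact permutation p = 0.0571), or -1.46 without LowAhR+AD replicate 1 (edgeR adjusted p = 0.446). Xcl1, the ligand of XCR1 made by lymphocytes, fell by 4.50 on the log2 scale in LowAhR+AD against LowAhR (SE 1.29, edgeR adjusted p = 0.0283), with 0, 0.656, 0.155 and 0.481 CPM against 1.69 to 16.9 CPM. Batf3 had 0 to 43 counts per library and group means of 0.973, 2.73, 1.61 and 1.12 CPM in the order Cont, LowAhR, LowAhR+AD, LowAhR+AD+BJ, and its groups overlapped in all 6 pairs. Its 95% interval in LowAhR+AD against LowAhR was -3.62 to 2.09 on the log2 scale.

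Flt3 (chr5:147330741-147400489) encodes the receptor for FLT3 ligand, through which dendritic cells are renewed from precursors. Its level spread widely within groups, with 0, 1.81, 0 and 2.99 CPM in Cont, 1.62, 12.9, 0.910 and 3.46 in LowAhR, 0, 1.48, 0 and 7.30 in LowAhR+AD, and 1.09, 1.73, 1.32 and 0 in LowAhR+AD+BJ. No pair of groups was without overlap, and LowAhR+AD differed from LowAhR by -1.10 on the log2 scale (SE 1.61). Flt3l, its ligand, had 18.1 to 25.8 CPM in LowAhR and 4.92 to 28.1 CPM in LowAhR+AD, where the highest value was that of replicate 1 (log2 fold change -0.86, edgeR adjusted p = 0.363).

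**Figure D3:**
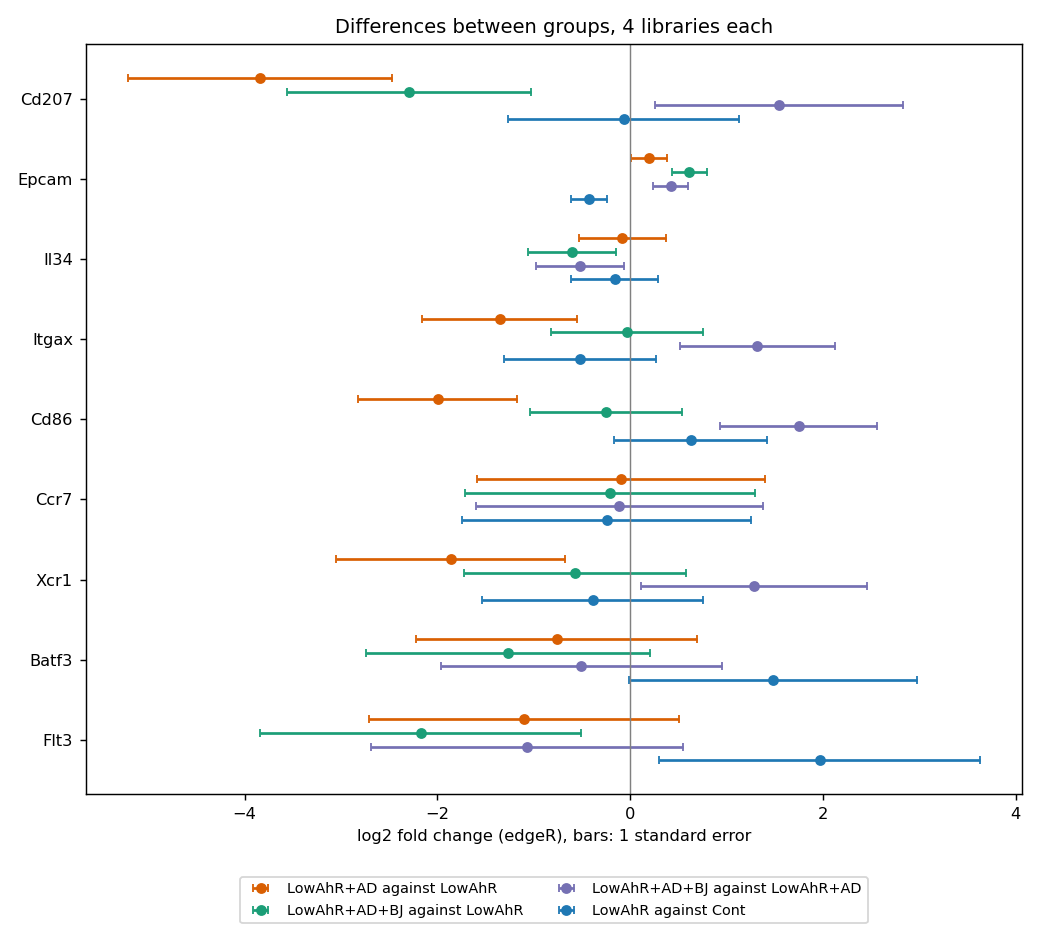
Log2 fold change of each member from edgeR in 4 comparisons of 4 libraries against 4, with bars of 1 standard error. Cd207 had values of -3.84 and -2.29 in the 2 comparisons with LowAhR, Epcam had the shortest bars, and the bars of Flt3, Batf3 and Ccr7 were 1.46 to 1.67 long.

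Read by comparison, few members were called, and the shares called among all tested rows give the measure. For LowAhR against Cont 0 of 9 members were called, where edgeR called 0 of all 14854 rows (0%). At an unadjusted p under 0.05 it held 2031 rows, among them 1 member, Epcam. For LowAhR+AD against LowAhR 0 of 9 were called, against 12.6% of all rows, 6.42% higher and 6.21% lower, and an unadjusted p under 0.05 was held by 4170 rows, among them 2 members, Cd207 and Cd86. For LowAhR+AD against Cont 1 of 9 was called, against 21.8% of all rows, 12.3% higher and 9.47% lower, and 5072 rows, among them 2 members, Cd207 and Itgax, had an unadjusted p under 0.05. For LowAhR+AD+BJ against LowAhR+AD 0 of 9 were called, as were 0% of all rows, with 1405 rows and 2 members, Epcam and Cd86, at an unadjusted p under 0.05. For LowAhR+AD+BJ against LowAhR 0 of 9 were called, against 6.77% of all rows, 3.64% higher and 3.12% lower, and 3291 rows, among them 1 member, Epcam, had an unadjusted p under 0.05. The members were thus called no more often than the tested rows as a whole.

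The direction of the members, called or not, is given as a description with no test. In LowAhR against Cont, without DNCB, 6 of 9 had a negative log2 fold change, with a median of -0.16 beside 0.03 over all rows. In LowAhR+AD against LowAhR it was 8 of 9, all but Epcam, with a median of -1.10 beside 0.04, and without LowAhR+AD replicate 1 it was 7 of 9 with a median of -0.94. Flt3, Ccr7 and Il34 changed sign there with 1 library left out. In LowAhR+AD against Cont it was 7 of 9, with a median of -0.34 beside 0.05, or 6 of 9 and -0.46 without that library. In LowAhR+AD+BJ against LowAhR it was 8 of 9, with a median of -0.58 beside 0.01, or 8 of 9 and -0.67 without LowAhR+AD+BJ replicate 3, and Itgax, Ccr7 and Cd86 changed sign with 1 library left out. In LowAhR+AD+BJ against LowAhR+AD 5 of 9 were positive, with a median of 0.42 beside -0.00023. Without LowAhR+AD+BJ replicate 3, 4 of 9 were positive and the median was -0.16, and without LowAhR+AD replicate 1 they were 6 of 9 and 0.47. The last comparison shares its LowAhR+AD libraries with LowAhR+AD against LowAhR and with LowAhR+AD against Cont, so a low LowAhR+AD library moves all of them.

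**Figure D4:**
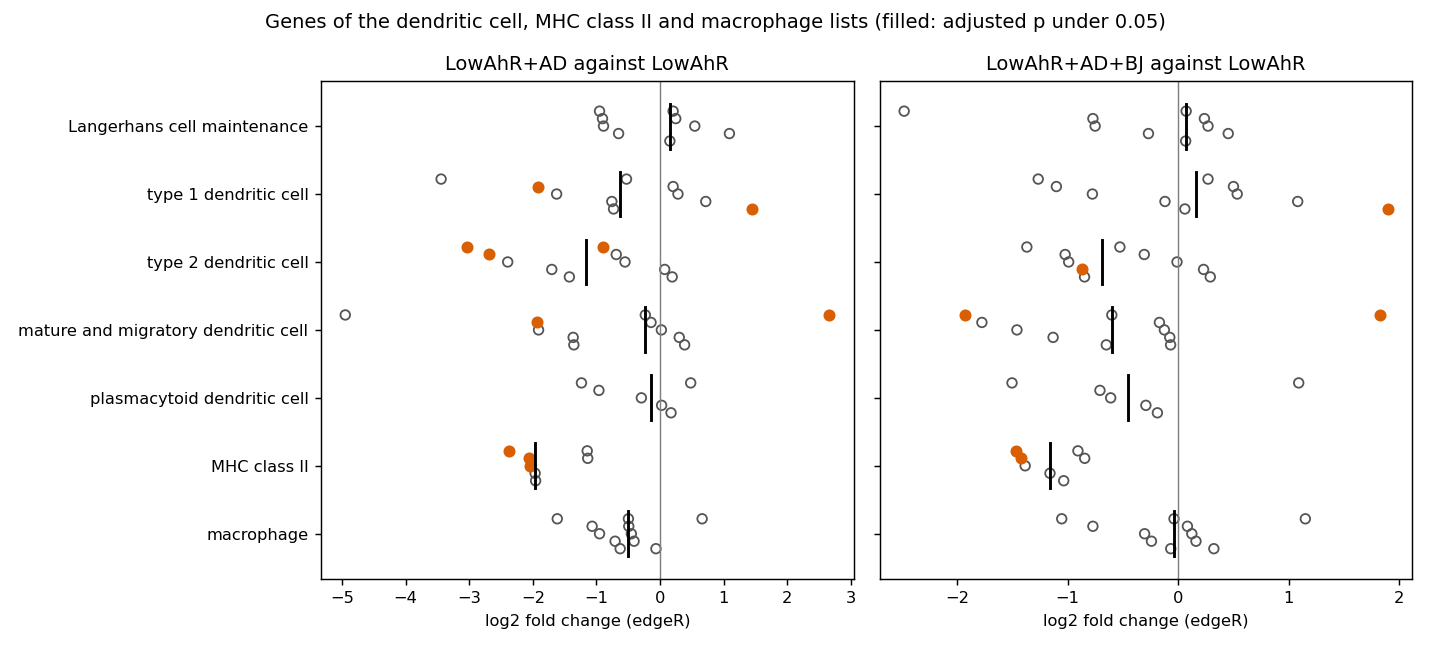
Log2 fold change from edgeR of each tested gene of 7 lists in each DNCB group relative to LowAhR. Each circle is a gene, filled where the adjusted p was under 0.05, and black lines are list medians. The median of the MHC class II list was -1.96 in LowAhR+AD and -1.16 in LowAhR+AD+BJ.

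MHC class II genes, by which Langerhans and dendritic cells present antigen, had 3 of 7 members called lower in LowAhR+AD against LowAhR, where all 7 had negative values: H2-DMa, a peptide-loading chaperone, at -2.37, Cd74, the invariant chain, at -2.06, and H2-Ab1 at -2.04 on the log2 scale (edgeR adjusted p = 0.00105, 0.00436 and 0.00635). The 3 called genes were among the 6.21% of all rows called lower. Ciita, the master regulator of these genes, was too sparse to follow at 0 to 3.33 CPM. With 1 library left out the number was 6 without LowAhR+AD replicate 3. Calls over all rows were 1876 in the main model and 2012 without that library. In LowAhR+AD+BJ against LowAhR 2 of the 7 were called lower, H2-DMa and Cd74, beside 3.12% of all rows. That number was 4 without LowAhR+AD+BJ replicate 3, 1 without LowAhR replicate 1 or 4, and 0 without LowAhR replicate 2 or 3 or without LowAhR+AD+BJ replicate 1, 2 or 4. Calls over all rows moved too, with 1005 in the main model and 1480 without LowAhR+AD+BJ replicate 3. They were 412 to 607 without LowAhR+AD+BJ replicate 1, 2 or 4. Without LowAhR replicate 1, 2 or 3 they were 551 to 624, and without LowAhR replicate 4 they were 1072. Langerhans cells, dermal dendritic cells, macrophages and B cells all express these genes, and the lists cannot assign them to one of these.

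In the type 2 dendritic cell list 3 of 10 tested genes were called lower in LowAhR+AD against LowAhR, beside 6.21% of all rows, and 2 of the 10 had positive values. Those called were the lectins Cd209a, at -3.03, and Mgl2, at -2.69, and the transcription factor Klf4, at -0.90 on the log2 scale (edgeR adjusted p = 0.0301, 0.0359 and 0.0230). Mgl2 is carried by dermal macrophages too, and Klf4 is a gene of differentiating keratinocytes. Mgl2 had 58.5, 102, 98.8 and 139 CPM in LowAhR, 0, 14.2, 19.1 and 28.6 CPM in LowAhR+AD, and 24.3, 26.1, 85.4 and 18.2 CPM in LowAhR+AD+BJ, where replicate 3 again stood high. The median of the list was -1.16, and Sirpa, at 0.19, was its highest gene. With LowAhR+AD replicate 1 and LowAhR+AD+BJ replicate 3 both left out, 5 were called. With only the 8 libraries compared in the model 0 were called. With 1 library left out, 0 were called without LowAhR replicate 2, and 1 was called without LowAhR replicate 1 or 4 or without LowAhR+AD replicate 4. Calls over all rows were 1876 in the main model, 765 with only the 8 libraries compared and 1156 without LowAhR replicate 2. They were 1179 and 2066 without LowAhR replicate 1 or 4, and 1536 without LowAhR+AD replicate 4.

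In the type 1 list 2 of 10 genes were called in LowAhR+AD against LowAhR, 1 in each direction, beside 6.42% of all rows called higher and 6.21% called lower. Cd24a, which epithelial and hair follicle cells also express, rose by 1.44 and Naaa fell by 1.92 on the log2 scale (edgeR adjusted p = 0.00396 and 0.0209). Itgae, the integrin CD103 of type 1 dendritic cells and epidermal T cells, had -3.44 (edgeR adjusted p = 0.0604), with 0.0763, 0.984, 0.466 and 0 CPM in LowAhR+AD against 2.15 to 6.52 CPM in LowAhR. The only gene of the list called in LowAhR+AD+BJ against LowAhR was Cd24a, at 1.90 (edgeR adjusted p = 0.00122), beside 3.64% of all rows called higher.

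Among 11 tested genes of mature and migratory dendritic cells 2 were called in LowAhR+AD against LowAhR, 1 in each direction, beside 12.6% of all rows. Fscn1, the actin-bundling fascin of mature dendritic cells, which other cells express as well, rose by 2.66 (edgeR adjusted p = 0.000226). It had 180, 74.2, 120 and 118 CPM in LowAhR+AD and 8.95 to 30.9 CPM in LowAhR. Cd274, which encodes the checkpoint ligand PD-L1, fell by 1.93 (edgeR adjusted p = 0.00482), and Ccl17, a chemokine of dendritic cells, was at 0 in 3 of the 4 LowAhR+AD libraries and at 2.05 to 5.01 CPM in LowAhR (log2 fold change -4.95, edgeR adjusted p = 0.0535). Fscn1 and Cd274 were called in the same directions in LowAhR+AD+BJ against LowAhR, at 1.83 and -1.93 (edgeR adjusted p = 0.00519 and 0.00848), beside 6.77% of all rows.

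Genes needed for Langerhans cell upkeep, of which 9 were tested, gave 0 calls in LowAhR+AD against LowAhR, beside 12.6% of all rows. Their values ran from -0.95 for Csf1r to 1.09 for the transcription factor Runx3. At an unadjusted p under 0.05 there were 3. Against Cont 1 of the 9 was called, beside 9.47% of all rows called lower. It was Tgfbr2, a receptor chain for TGF-β, which fell by 1.35 on the log2 scale (edgeR adjusted p = 0.0276). The 6 tested genes of plasmacytoid dendritic cells gave 0 calls in LowAhR+AD against LowAhR, beside 12.6% of all rows. Their values ran from -1.24 for Siglech to 0.48 for Ly6d, and 1 had an unadjusted p under 0.05. Siglech was at 0.101 to 7.31 CPM and Ly6d at 140 to 1131 CPM over the 16 libraries. Whole skin does not show which cells the Ly6d counts came from.

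Markers of other cells moved in both directions. Their counts called in LowAhR+AD against LowAhR stand beside 6.42% of all rows called higher and 6.21% called lower. Of 11 tested macrophage genes 0 were called in LowAhR+AD against LowAhR and 1 had an unadjusted p under 0.05, with values from -1.62 for Cd163 to 0.66 for Fcgr1. Their summed level was 1607 to 1780 CPM in LowAhR, and 247, 1061, 1339 and 1739 CPM in LowAhR+AD, in replicate order. Of 7 leukocyte genes 6 had negative values and 1, Ptprc, was called lower. Of 10 T cell genes 8 had negative values, and the median of the list was -1.75. Called lower were 2 of them, Cd3e and Cd3g, with log2 values of -6.18 and -5.002 (edgeR adjusted p = 0.0139 and 0.00855). All 6 tested neutrophil genes had positive values, and 4 were called higher, S100a8, S100a9, Mmp8 and Cxcr2. The paper counts S100A genes among those of the epidermal differentiation complex, so S100a8 and S100a9 cannot be assigned to neutrophils alone. B cell genes could hardly be measured, with 1 of 6 tested and summed levels of 0 to 6.54 CPM. Of 10 keratinocyte genes 5 had positive values and 2 were called higher, led by Krt14 at 1.99, with Krtdap lowest at -1.39. Of 16 hair follicle genes all had positive values, from 0.37 for Msx2 to 2.83 for Krt35, with 1 called. Of 7 tested sebaceous genes 4 had negative values and 2 were called lower. How far such shifts in the make-up of the skin bear on the members was not tested.

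The genes whose levels moved most like each member between libraries of the same group were sought among 9387 genes with a mean of at least 10 CPM, by Pearson's r of log2 CPM after subtracting group means over the 16 libraries. For Cd207 the closest were Dab1 (r = 0.94) and Cd74 (0.93). As the points share library depth and 2 libraries stand apart, these are given as descriptions. For Itgax they were Rnf103, Ubxn6 and Hpse (0.94, 0.94 and 0.93), and for Cd86 Elf2, Gpihbp1 and Ifi30 (0.91 each). With LowAhR+AD replicate 1 left out and group means taken again, r was 0.78, 0.89 and 0.75 for those of Itgax and 0.74 for each of those of Cd86. With LowAhR+AD+BJ replicate 3 left out, r of Cd207 was 0.71 with Dab1 and 0.84 with Cd74, and with both left out 0.76 and 0.78. For the other members the closest genes were Exoc8, Neu2 and Mrpl44 for Epcam (0.88, 0.84 and 0.83), Top3b, Hras and Puf60 for Il34 (0.89, 0.88 and 0.86), Hdgf, Tm2d2 and Ndor1 for Xcr1 (0.89, 0.88 and 0.87), Cbx6, Sobp and Kcna1 for Batf3 (0.87, 0.85 and 0.84), Ccl24, Tle1 and Thumpd3 for Flt3 (0.84, 0.80 and 0.79), and Nr1h2, Gucd1 and Gngt2 for Ccr7 (0.80, 0.79 and 0.78).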

How the data were processed

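Total RNA of dorsal skin was made into QuantSeq 3′ libraries and sequenced by the authors from a single end. The authors deposited 1 table per library with the raw count of every gene symbol. The submitters' processing notes name Bowtie2, bedtools and mm10, and the counter and the handling of multi-mapping reads are not given in the sources used here. Short reads next to the poly(A) tail give about 1 fragment per transcript, and no molecular identifiers are named. Groups and replicate numbers were taken from the labels.

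Counts were analysed with edgeR 4.0.16 in R 4.3.3. Rows were kept by filterByExpr (minimum count 10, minimum total 15), which left 14854 rows and all 9 members. TMM factors were 0.892 to 1.16. All 16 libraries entered 1 quasi-likelihood model, with Benjamini-Hochberg adjustment over all tested rows. Log2 CPM used a prior count of 2. Single genes were also compared by two-sided exact permutation tests. The labels number the libraries within a group and name no mouse.

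The members and lists were chosen with earlier results of these data known. Named genes were all members, all paired ligands and receptors, the highest and lowest tested gene of each dendritic, macrophage, leukocyte, MHC class II, keratinocyte and hair follicle list in LowAhR+AD against LowAhR, and the 3 genes most alike to each member, of which 1 is not reported here. Other list genes named were chosen after their values were seen. Promoters came from RefSeq GRCm38.p6, and all 9 members matched its gene table. Scripts were tested on simulated counts with 200 changed genes in LowAhR+AD against LowAhR. There edgeR called 9% of 2-fold and 53.5% of 4-fold changes, limma voom 8% and 49.5%, and DESeq2 21% and 72.7%. Of the calls 1.59% were false with edgeR, 3.39% with limma voom and 21.8% with DESeq2. A gene not called by edgeR may thus still have changed, and calls made by DESeq2 alone are less certain.

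Alternatives were upper-quartile factors, RLE factors, limma voom 3.58.1, DESeq2 1.42.0, no filter, at least 10 counts in every library, the 8 libraries compared alone, a replicate block, library sizes without hair follicle, muscle and fat genes, and each library left out. Leaving out LowAhR+AD replicate 1 together with LowAhR+AD+BJ replicate 3 was added after seeing the data.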

Additional observations from a re-analysis of the deposited data

Results flagged for a closer look

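A library was set apart where its gap to the nearest of its group, divided by the group's range, passed Dixon's 95% critical value, and chance alone would pass about 1 in 20 groups. Of 36 groups of 4 libraries (9 members in 4 groups) 5 passed. Cd207 passed in LowAhR+AD+BJ replicate 3, at 8.71 CPM with the other libraries of the group at 0, and in Cont replicate 3, at 15.5 CPM with the others at 9.62 to 10.3 CPM. Batf3 passed in Cont replicate 1, at 1.54 CPM, and in LowAhR replicate 1, at 0 CPM while the others had 3.46 to 3.84 CPM. Il34 passed in LowAhR+AD+BJ replicate 1, at 4.10 CPM below 7.83 to 7.96 CPM.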

How the results depend on the processing

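Flt3, Ccr7 and Batf3 had 30 to 149 counts per group of 4 libraries. In LowAhR+AD against LowAhR 0 members were called in the main model, 1 with DESeq2 (Cd86), 2 with limma voom (Cd207 and Cd86), 1 (Cd207) with only the 8 libraries compared, and 1 (Cd207) with LowAhR+AD replicate 1 and LowAhR+AD+BJ replicate 3 both left out, and 0 to 1 with 1 library left out, the call coming without LowAhR+AD replicate 3. In LowAhR+AD against Cont, where 1 was called (Cd207), it was 2 with limma voom (Cd207 and Itgax), 1 with DESeq2 (Itgax, not Cd207), 0 with at least 10 counts in every library, a filter that removes Cd207, and 0 to 1 with 1 library left out. In LowAhR+AD+BJ against LowAhR, where 0 were called, it was 1 with DESeq2 and 1 with that filter (Epcam both times), 2 with limma voom and 2 with both libraries left out (Cd207 and Epcam both times), and 0 to 1 with 1 library left out, the calls coming without LowAhR replicate 1 (Epcam) and without LowAhR+AD+BJ replicate 3 (Cd207). DESeq2 gave Cd207 no adjusted p. Type 2 dendritic cell calls in LowAhR+AD against LowAhR were 3, 5 with limma voom and 0 with only the 8 libraries compared, and MHC class II calls were 3, 5 with DESeq2 and 6 with limma voom. Over all rows, calls in LowAhR+AD against LowAhR were 1876, 2673 with DESeq2, 2092 with limma voom and 765 with only the 8 libraries compared. Against Cont they were 3233, 3886 with DESeq2 and 3206 with limma voom. In LowAhR+AD+BJ against LowAhR they were 1005, 1676 with DESeq2 and 1005 with limma voom.

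Replicate numbers carried no pairing: over 24 pairs of libraries with the same number, deviations from group means correlated at -0.055 to 0.167 (median -0.0074), and 3 exceeded 0.1. With the replicate block 1 member, Cd207, was called in LowAhR+AD against LowAhR, and MHC class II calls rose from 3 to 6 there and from 2 to 4 in LowAhR+AD+BJ against LowAhR. Calls over all rows fell from 1876 to 1689 and from 1005 to 947 in these 2 comparisons. The block gave Cd207 0.045 in LowAhR against Cont, Ccr7 0.21 in LowAhR+AD against LowAhR and Flt3 1.91 in LowAhR+AD+BJ against LowAhR+AD, each a change of direction.

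Of 764 member fold changes under an alternative 49 changed direction, none of them called in the alternative. With limma voom these were Xcr1 in LowAhR against Cont (0.60), Flt3 and Batf3 in LowAhR+AD against Cont (-0.16 and -0.36), Cd207, Flt3 and Ccr7 in LowAhR+AD+BJ against LowAhR+AD (-0.91, 0.85 and 0.64), and Itgax and Ccr7 in LowAhR+AD+BJ against LowAhR (0.25 and 0.32). With both libraries left out they were Ccr7 in LowAhR+AD against LowAhR (0.30) and against Cont (0.052), and Cd207 in LowAhR+AD+BJ against LowAhR+AD (-6.24). With 1 library left out, the log2 fold changes that crossed 0 ranged in LowAhR against Cont from -0.17 to 0.12 for Cd207, -1.30 to 0.17 for Ccr7, -0.80 to 0.18 for Xcr1 and -0.64 to 0.15 for Il34. In LowAhR+AD against LowAhR they ranged from -3.24 to 0.14 for Flt3, -0.85 to 0.96 for Ccr7 and -0.29 to 0.41 for Il34, and against Cont from -1.27 to 1.85 for Flt3, -1.10 to 0.052 for Ccr7 and -0.46 to 0.070 for Il34. In LowAhR+AD+BJ against LowAhR+AD they ranged from -5.87 to 2.84 for Cd207, -1.49 to 1.06 for Flt3, -0.52 to 0.64 for Ccr7 and -1.22 to 0.11 for Batf3, and against LowAhR from -0.33 to 0.46 for Itgax, -0.62 to 0.85 for Ccr7 and -0.50 to 0.010 for Cd86. The causes were not tested.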
